A study of Homo sapiens with 32 samples.

Results

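Most of the genes described here encode enzymes that add methyl groups to lysines of histones, or take them off, and others encode further SET domain proteins such as SETD3. The whole set is the protein-coding genes on the autosomes or X chromosome with names beginning KDM, KMT, SETD, NSD, EHMT or EZH and a digit. The name rule makes 1 exception, and it took 42 of 19451 protein-coding genes. The rule uses names and no measured value, and it was set with earlier results of these data known. The measurement was iCLIP, in which UV light crosslinks a protein to RNA in living cells and a purified read stops next to the crosslinked base. Each deduplicated read gives 1 tag at 1 base, and tags were counted on the strand of the gene.

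Methyl groups on histone lysines mark the state of chromatin. Methylation of lysine 4 of histone H3 (H3K4) marks promoters and enhancers, H3K36 methylation marks transcribed gene bodies, and H3K9 and H3K27 methylation mark repressed chromatin. SET domain proteins write most of these marks, and the amine oxidases of the KDM1 family and the JmjC domain proteins erase them. Many of the writers are very large proteins with many exons, so their transcripts offer an export factor a long exonic sequence and many splice junctions.

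The cells were HEK293T FlpIn, a human kidney-derived laboratory line that carries 1 recombination site for transgenes. Alyref-FLAG and Chtop-FLAG lines received tetracycline at 10 ng/mL for 48 h and the Nxf1-FLAG line 5 ng/mL for 48 h. The Control carried an empty FLAG construct, and the labels give no tetracycline dose or induction time for it. Alyref and Chtop belong to TREX, the complex that couples transcription to export, and Nxf1 is the export receptor. Each group had 3 libraries from 1 stable line, and nothing in the labels says that replicates were separate cultures, so that p-values measure the spread between these libraries only. A FLAG-tagged transgene was measured, not the endogenous protein, and a gene's tags depend on its RNA level as well as on binding.

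Depth limited every comparison. Libraries held 7017 to 631704 tags, and replicate 1 was the shallowest in each group, with 7017 tags in Control 1 and 8134 in Nxf1 1. The 42 genes took 17173 tags in all. Of these, 434, 4127 and 3428 came from Alyref 1 to 3. Chtop 1 to 3 gave 242, 4199 and 3025. Nxf1 gave 49, 616 and 679, and the Control gave 36, 212 and 126. The run names in the labels differ between replicate 2 and the others in the same way in every group, and in every group replicate 3 alone has no miseq run. Replicate 1 also stood apart in placement in the shallow groups, since 79.5% of the tags of these genes were exonic in Nxf1 1 against 45.3% and 32.5% in Nxf1 2 and 3. Levels are given in CPM (tags per 1000000 tags of the library). Where a gene has 0 tags its level may still reach 4.75 CPM in Alyref 2 and 428 CPM in Control 1, by counting error alone.

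The share of the protein-coding tags that fell on the 42 genes differed between groups. The Control share was 0.668% ± 0.0130 (SD, n = 3), the Alyref share 0.780% ± 0.0312, the Chtop share 0.900% ± 0.0721 and the Nxf1 share 0.727% ± 0.0788. Every Alyref library lay above every Control library and every Chtop library above every Alyref library, and the Nxf1 range of 0.656% to 0.812% overlapped both Alyref and Control. Alyref and Chtop left tags on 40 of the genes, Nxf1 on 39 and the Control on 36. KDM4E and KDM4F, which resemble the H3K9 demethylase KDM4D, had no tag in any library. KDM4D itself had 15 tags and SETD9 had 10, all libraries together.

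Levels ran over a wide range among the genes. Ordered by mean CPM over the 9 factor libraries, the highest were KMT2A with 525, KMT2C with 523, SETD5 with 448, NSD2 with 375, NSD1 with 365 and NSD3 with 332. KMT2A and KMT2C are H3K4 methyltransferases of the MLL family, NSD1, NSD2 and NSD3 are H3K36 methyltransferases, and SETD5 is a SET domain protein. KMT2C had 590, 510 and 446 CPM in Alyref 1 to 3, 489, 746 and 740 in Chtop, 492, 310 and 379 in Nxf1 and 855, 493 and 243 in Control. Its groups overlapped. SETD5 had 443, 476 and 356 CPM in Alyref, 319, 559 and 566 in Chtop, 861, 294 and 162 in Nxf1 and 0, 515 and 108 in Control. NSD1 had 234, 388 and 312 CPM in Alyref, 234, 518 and 417 in Chtop, 492, 520 and 167 in Nxf1 and 428, 236 and 270 in Control. No group stood clear of the others in either gene. Genes differ in length, so exonic levels were also taken per length. In exonic CPM per kb of exon over the factor libraries, SETD5 had 44.2, KDM5C 31.2, KMT2B 30.0, EZH2 29.4, NSD2 28.8 and KMT2A 26.7. The values for KDM5C, KMT2B, EZH2 and NSD2 lay close together on this scale. Tags of KMT2C are uncertain, as parts of this gene have near-identical copies elsewhere and only uniquely mapped reads were kept, and the same holds for KMT5A, which has processed pseudogenes.

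Grouped by role, the 7 genes listed as H3K4 methyltransferases, KMT2E among them, took the most tags. They held 2175 in Alyref, 2485 in Chtop, 324 in Nxf1 and 100 in Control. The 4 H3K36 methyltransferases followed with 1401, 1796, 261 and 60 tags. The 3 H3K4 demethylases (KDM5A, KDM5B, KDM5C) held 796, 578, 110 and 27, and the 9 H3K9 JmjC demethylases 870, 611, 156 and 47. The other role groups, among them the H3K27 methyltransferases EZH1 and EZH2 and the amine oxidases KDM1A and KDM1B, held 817 or fewer tags in each factor. Chtop therefore had more tags than Alyref in both large methyltransferase groups although its libraries held fewer tags in all.

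At the level of single bases, tags were scattered. Of 16188 bases with a tag in the 42 genes, 95.6% had tags from 1 library only, 58 had tags from 3 or more libraries, and 2 from 4 libraries, the most seen. The 2 bases in 4 libraries lie in the 3′ UTRs of KDM1A (chromosome 1, 23410140) and KMT2A (chromosome 11, 118397302). The 58 bases lie in 15 genes, with 33 in CDS and 21 in 3′ UTRs, and 48 of them are U. KMT2A holds 14, SETD5 13, and 50 of them had both Alyref and Chtop tags. Most tags of these genes came from Alyref 2 and 3 and Chtop 2 and 3. A base with tags from 3 or more libraries will therefore mostly include both factors, whatever their binding. The next lines give 6 of the CDS bases, 10 bases to either side, from GRCh37 on the gene's strand, 5′ to 3′, with T for U and the crosslinked base in capitals. They were picked among the bases with U to show where tags recurred in the genes with the most tags and in EZH2.
EZH2, chr7:148506470-148506490, minus strand, 3 Alyref tags: ctttttagatTttgtggtgga
KMT2A, chr11:118372514-118372534, plus strand, 2 Alyref tags and 1 Chtop tag: aacacccagtTattctccaac
KMT2C, chr7:151875076-151875096, minus strand, 1 Alyref tag and 2 Chtop tags: gatttggattTccaggaggta
NSD1, chr5:176683985-176684005, plus strand, 3 Alyref tags: gggaagatgtTaaaaggtgcc
NSD2, chr4:1902590-1902610, plus strand, 1 Alyref tag and 2 Chtop tags: ccctgcccttTattccagccg
SETD5, chr3:9483387-9483407, plus strand, 1 Alyref tag and 2 Chtop tags: acgacagcaaTttgaggtcaa

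The base with the most tags in each group came from 1 library each time, with 5 or 6 tags, and lay outside the exons of the canonical transcript. The windows are shown in the same way because all of them run into a stretch of 8 to 10 identical letters right after the base.
KDM4A, intron, chr1:44131252-44131272, plus strand, 5 tags in Alyref 2: cttgggaagtTaaaaaaaaaa
KDM6A, exon of another isoform, chrX:44966216-44966236, plus strand, 5 tags in Alyref 3: tagtgttgatTaaaaaaaaaa
KDM4B, intron, chr19:5048638-5048658, plus strand, 6 tags in Chtop 2: acctcttcgtTaaaaaaaagc
KDM5A, intron, chr12:486202-486222, minus strand, 5 tags in Nxf1 2: cttcttaagaCtttttttttt
EZH2, exon of another isoform, chr7:148517648-148517668, minus strand, 5 tags in Control 2: caactttgtcCtttttttttt

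Tags right before at least 8 A or 8 U were rare in all libraries, 2.08% to 3.31% of the tags of these genes in Alyref and Chtop, 0%, 4.71% and 7.66% in Nxf1 1 to 3 and 0%, 4.25% and 3.17% in Control 1 to 3. The part of such stretches in the counts was not tested. U stood at the crosslinked base of 48.5% ± 3.09 (SD, n = 3) of exonic tags in Alyref, 52.2% ± 2.61 in Chtop, 49.7% ± 7.72 in Nxf1 and 37.3% ± 10.5 in Control. In introns it was 65.0% ± 2.50, 57.8% ± 7.23, 65.2% ± 1.39 and 52.8% ± 14.1.

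The first comparison set each factor against the Control on tags per gene. It was fitted on 3202 genes with edgeR's quasi-likelihood test and Benjamini-Hochberg adjustment, and 29 of the 42 genes had enough tags to enter. For Alyref, 0 of the 29 passed in either direction, against 0.187% of all genes higher and 0.312% lower. By an unadjusted p under 0.05, 2 of them passed, beside 15.8% of all genes, and DESeq2 gave 0 calls. For Nxf1, 0 of 29 passed, against 0% of all genes higher and 0.0312% lower, 1 passed at an unadjusted p under 0.05 (7.56% of all genes did), and DESeq2 gave 0. For Chtop, 3 of 29 were higher and none was lower, which is 10.3% of them against 10.2% of all genes higher and 5.68% lower. The median log2 ratio of the 29 genes was 0.53 for Chtop, beside 0.20 over all genes tested.

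The genes higher in Chtop than in the Control were NSD3, KMT2A and NSD2. NSD3 (ENSG00000147548, chromosome 8, 38127222 to 38239790 on GRCh37, minus strand) had 298, 540 and 608 CPM in Chtop 1 to 3 and 0, 129 and 27.04 in Control 1 to 3. All Chtop values lay above all Control values, and the Control values rest on 7 tags. The log2 ratio was 2.73 ± 0.54 (SE, edgeR adjusted p = 0.000486). KMT2A (ENSG00000118058, chromosome 11, 118307171 to 118397547, plus strand) had 616, 1019 and 754 CPM in Chtop and 143, 129 and 216 in the Control. Its groups did not overlap either, and the log2 ratio was 2.26 ± 0.48 (SE, edgeR adjusted p = 0.00117). NSD2 (ENSG00000109685, chromosome 4, 1873120 to 1983934, plus strand) had 510, 538 and 521 CPM in Chtop and 428, 257 and 135 in the Control, also without overlap, and its log2 ratio was 1.24 ± 0.42 (SE, edgeR adjusted p = 0.0362). Without Control 2 the NSD3 log2 ratio was 4.44, and without Control 3 that of KMT2A was 2.90. The NSD3 call held under all 23 alternatives, the KMT2A call under 22, and the NSD2 call under 11. With exonic bases only, NSD3 alone was called among these genes (775 genes tested).

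**Figure D1:**
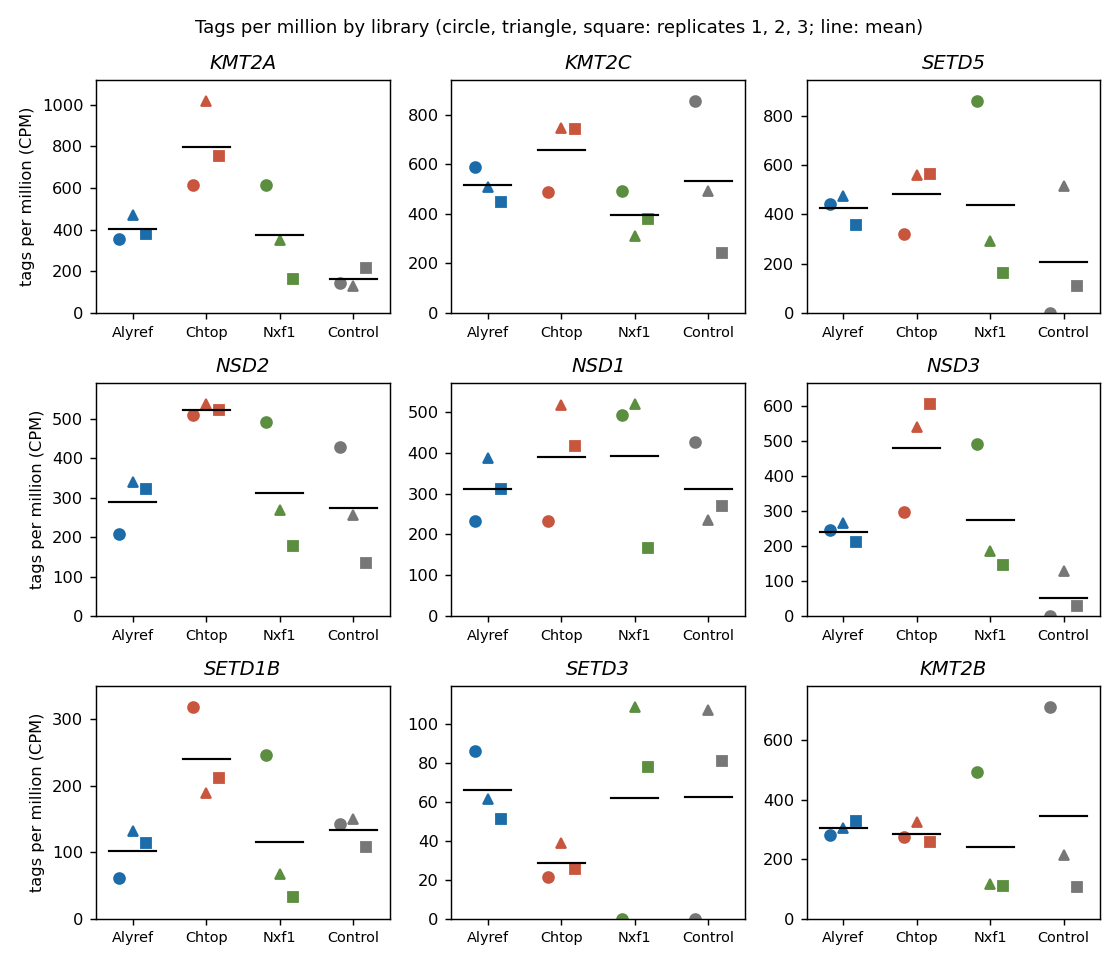
CPM (linear axis from 0) of 9 genes in each library, with groups on the horizontal axis, a symbol for each replicate and a line at the mean of 3 libraries. NSD3, KMT2A, SETD1B and NSD2 sit higher in all Chtop libraries than in all Alyref libraries, and replicate 1 of Nxf1 and Control often sits apart from replicates 2 and 3.

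Chtop was then set against Alyref on the same scale. Here 4 of 29 genes were higher in Chtop and 0 lower, which is 13.8% against 11.6% of all 3202 genes higher and 6.56% lower, and the median log2 ratio of the 29 was 0.05, beside 0.01 over all genes. These 4 were NSD3, KMT2A, NSD2 and SETD1B, which writes H3K4 methylation as part of the SET1 complex. For NSD3, Alyref had 246, 266 and 211 CPM, below all 3 Chtop libraries, and the log2 ratio was 1.24 ± 0.30 (SE, edgeR adjusted p = 0.00204). For KMT2A, Alyref had 357, 472 and 378 CPM, again below all Chtop libraries, with a log2 ratio of 1.13 ± 0.32 (SE, edgeR adjusted p = 0.0104). NSD2 had 209, 339 and 322 CPM in Alyref and a log2 ratio of 0.95 ± 0.29 (SE, edgeR adjusted p = 0.0178). SETD1B (ENSG00000139718, chromosome 12, 122241915 to 122270562, plus strand) had 61.5, 131 and 114 CPM in Alyref and 319, 189 and 212 in Chtop, with a log2 ratio of 1.06 ± 0.29 (SE, edgeR adjusted p = 0.00631). The groups did not overlap for any of the 4 genes, and the highest SETD1B value came from the shallow Chtop 1, where it rests on 15 tags.

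At the other end, SETD3 and EZH2 had the lowest log2 ratios, -0.79 ± 0.46 and -0.55 ± 0.30 (SE), and neither passed (edgeR adjusted p = 0.220 and 0.198). SETD3 methylates a histidine of actin, and EZH2 is the catalytic subunit of PRC2, which writes H3K27 methylation. Without Alyref replicate 2 the count of called genes fell from 4 to 0, and without Alyref replicate 3 it was 0 too. With exonic bases only it was 7, of which 2 were lower in Chtop, KDM5A (-0.61 ± 0.24) and KMT2B (-0.50 ± 0.20). That fit covered fewer genes, and the share of them called is not given, so 7 is not comparable with 4.

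Nxf1 differed from Chtop in 6 of the 29 genes and from Alyref in 0. Against Alyref, 1.84% of all genes were higher and 3.47% lower, 2 of the 29 had an unadjusted p under 0.05 (19.9% of all genes did), and DESeq2 gave 0. Against Chtop, 5 genes were lower in Nxf1 (17.2%, against 16.5% of all genes) and 1 was higher (3.45%, against 10.8%). The lower ones were SETD1B, KMT2A, NSD3, NSD2 and KMT2B. SETD1B had 246, 67.1 and 33.5 CPM in Nxf1 1 to 3, where Nxf1 1 rests on 2 tags, and a log2 ratio of -1.82 ± 0.43 (SE, edgeR adjusted p = 0.00145). KMT2A had 615, 352 and 162 CPM in Nxf1 and a ratio of -1.49 ± 0.37 (edgeR adjusted p = 0.00272). NSD3 had 492, 185 and 145, with -1.39 ± 0.35 (edgeR adjusted p = 0.00315). In SETD1B and NSD3, Nxf1 2 and 3 lay below every Chtop library and Nxf1 1 did not, while in KMT2A all Nxf1 libraries lay below all Chtop libraries, Nxf1 1 only just.

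NSD2 had 492, 268 and 178 CPM in Nxf1, all below Chtop (log2 ratio -1.06 ± 0.34, edgeR adjusted p = 0.0177). KMT2B had 492, 117 and 112 in Nxf1 and 276, 325 and 258 in Chtop (-0.99 ± 0.36, edgeR adjusted p = 0.0366). SETD3 was the gene higher in Nxf1, with 0, 109 and 78.1 CPM against 21.3, 39.0 and 25.6 in Chtop (1.65 ± 0.53, edgeR adjusted p = 0.0182). Its Control libraries had 0, 107 and 81.1 CPM, so that its Nxf1 level did not stand above the Control. In KMT2B and SETD3 1 Nxf1 library lay on the other side of the Chtop libraries. With exonic bases only, NSD3 was the 1 gene still called, and KMT2B turned from -0.99 to 0.40 (adjusted p = 0.394). Without Nxf1 replicate 3 the count fell to 0, and without Nxf1 replicate 2 to 3. SETD3 did not enter either fit, and the other genes that dropped out of the count were tested and lost their calls.

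Placement within the genes was compared next. The exon share is the percentage of exonic tags among tags in exons of the canonical transcript and tags in bases that no isoform has as exon. Over the 42 genes it was 71.7%, 68.2% and 62.8% in Alyref 1 to 3, 80.6%, 79.9% and 87.0% in Chtop, 79.5%, 45.3% and 32.5% in Nxf1, and 62.9%, 32.2% and 24.4% in Control. All Chtop libraries lay above all Alyref libraries, and within each replicate number the order Control below Alyref below Chtop held. Nxf1 lay above the Control within each number, and the pooled ranges of Nxf1 and Control overlapped. The share was higher than over all protein-coding genes in every library, where it ran from 50.9% to 61.7% in Alyref, from 62.3% to 79.5% in Chtop and from 16.7% to 46.4% in Control. Per kb, exons held 21.7 to 32.6 times the tags of introns in Alyref, 51.2 to 86.2 times in Chtop, 6.20 to 50.01 times in Nxf1 and 4.14 to 21.8 times in Control.

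**Figure D2:**
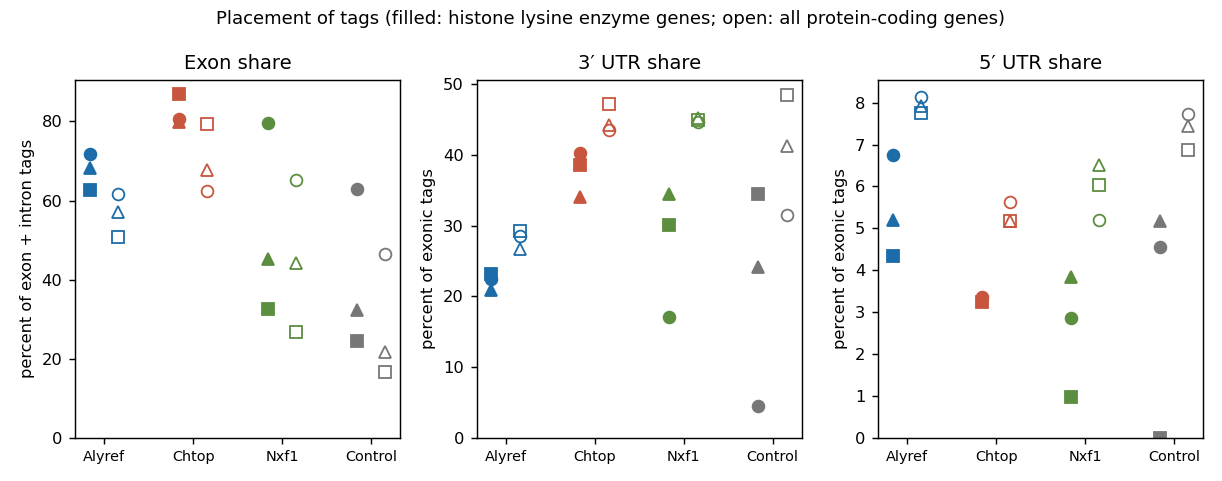
Share of tags by library (vertical axes in percent, from 0), for the 42 genes (filled) and for all protein-coding genes (open), with symbols for replicates 1 to 3. The exon share of the 42 genes is 62.8% to 71.7% in Alyref and 79.9% to 87.0% in Chtop, and their 3′ UTR share is 20.9% to 23.1% in Alyref and 34.1% to 40.2% in Chtop.

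The exon share differed widely between the genes. Among genes with at least 200 tags in the 9 factor libraries, it was highest in KMT2A (92.4%), KMT2B (90.4%) and SETD1B (88.2%), all H3K4 methyltransferases, and lowest in KDM4B (29.7%), KDM4C (36.5%) and EHMT1 (42.6%), which act on H3K9. Introns are short in the first 3 genes, with 58908, 10101 and 20091 bases in all, and long in the others, with 169767, 444463 and 228837 bases. The roles overlapped, as KMT2E, grouped with the H3K4 methyltransferases, had 58.5% and the H3K9 demethylase KDM3B had 70.9%. Of EHMT1's 768 tags, 485 were used, as the others lay in an overlapping gene. In 38 of the 40 genes with tags the exon share was higher in Chtop than in Alyref. It was higher in Alyref than in Control in 35 of the 36 genes with Control tags. These counts include genes with few tags, such as SETD9 and KDM4D. In the test of exonic to intronic tags below, the ratio went the same way in most genes at large. It was above 0 in 85.5% of all genes tested for Chtop against Alyref and in 83.0% for Alyref against Control.

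**Figure D3:**
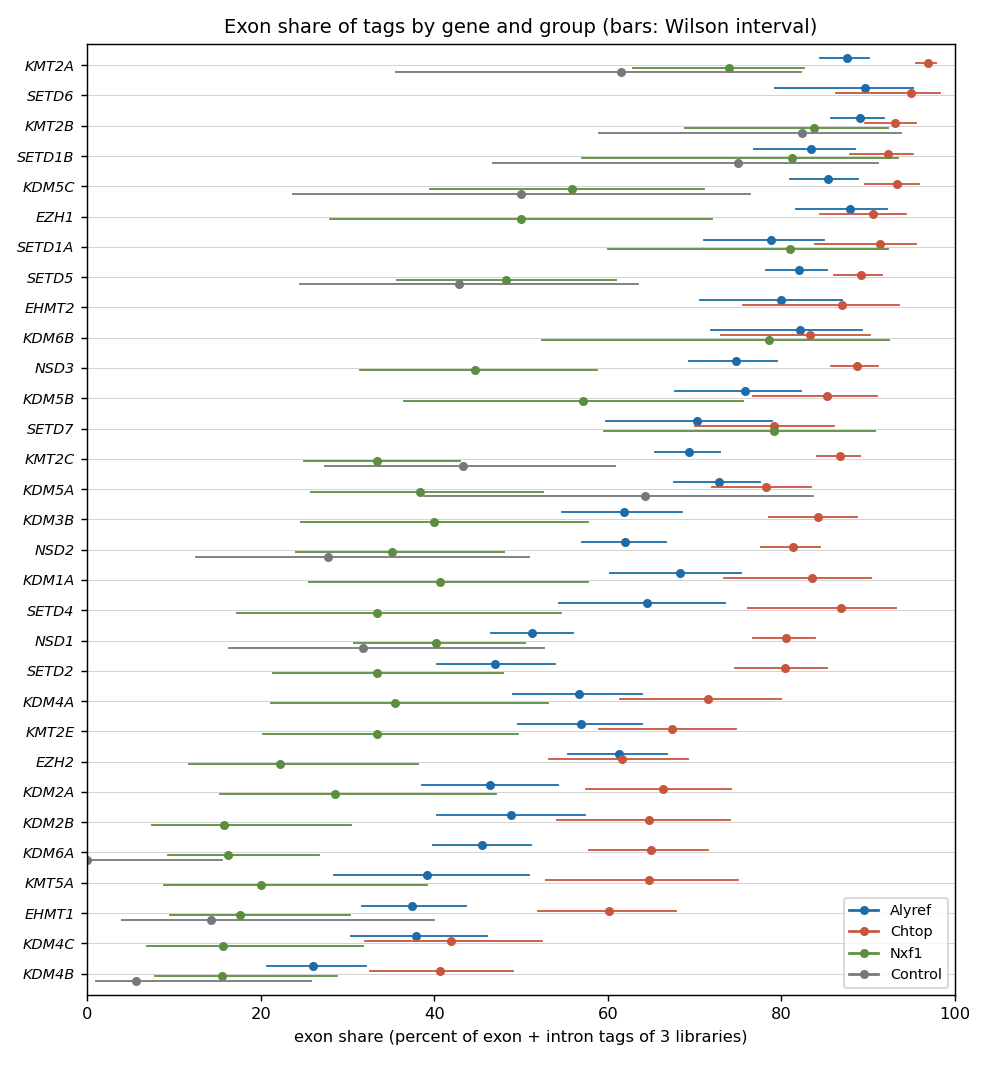
Exon share (horizontal axis, percent of exon and intron tags, 3 libraries summed) for the 31 genes with at least 50 such tags in both Alyref and Chtop, with 95% Wilson intervals that cover counting error only; a group is drawn where a gene had at least 10 tags. Chtop sits to the right of Alyref in 31 of 31 genes, and Nxf1 sits to the left of Alyref in all but SETD1A and SETD7 of the genes where it is drawn, and Control in all of them.

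The ratio of exonic to intronic tags was tested within each gene, on 7629 genes, with 36 of the 42 genes among them. The exonic share rose from Control to Chtop in 13 of 36 genes (36.1%) and fell in 0, against 11.8% of all genes higher and 0% lower. The 36 genes held more tags than the genes tested at large (median 307 against 156 exonic and intronic tags), and their median log2 ratio was 3.45, beside 3.20 over all genes. For Alyref against Control 0 of 36 passed (0.118% of all genes higher and 0% lower), with 10 at an unadjusted p under 0.05, beside 14.5% of all genes, and a median of 2.19, beside 2.21. For Nxf1 against Control 0 of 36 passed (0% of all genes in either direction), with 1 at an unadjusted p under 0.05, beside 4.12% of all genes, and a median of 0.78, beside 1.03.

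KDM6A, the H3K27 demethylase UTX on the X chromosome (44732434 to 44972024), had the smallest p. Its exons held 4, 54 and 61 tags in Chtop 1 to 3 and its introns 2, 42 and 20. In the Control, 0 of 21 tags were exonic, which allows a share of up to 14.3%, and all 3 Control libraries were at 0% (edgeR adjusted p = 0.00280). In Alyref 45.5% of 297 tags were exonic, with a 95% Wilson interval of 39.9% to 51.2%. SETD4, a SET domain protein, had 0 of 5 exonic tags in the Control and 53 of 61 in Chtop (edgeR adjusted p = 0.0198). The Control held no exonic tag in either gene, so that no fold change is given.

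KDM4A and KDM5B, demethylases of H3K9 and H3K4, also had no exonic Control tag, with 0 of 6 and 0 of 3 (edgeR adjusted p = 0.0328 and 0.0499). The other 9 genes had exonic Control tags. NSD1 had 66.7%, 30.0% and 22.2% of its tags in exons in Control 1 to 3 and 70.0%, 76.2% and 88.0% in Chtop (log2 ratio 3.12 ± 1.01, edgeR adjusted p = 0.0279). NSD2 had 33.3%, 27.3% and 25.0% against 65.0%, 79.5% and 85.3% (3.32 ± 1.07, edgeR adjusted p = 0.0278). SETD5 had no tag in Control 1, 38.9% and 66.7% in Control 2 and 3, and 92.3%, 85.8% and 93.0% in Chtop (3.46 ± 1.11, edgeR adjusted p = 0.0270). In these genes no Control library reached a Chtop library.

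KMT2A had 100%, 20.0% and 85.7% in Control 1 to 3, on 1, 5 and 7 tags, and 96.4%, 97.4% and 96.2% in Chtop (4.24 ± 1.35, edgeR adjusted p = 0.0258). KMT2C had 80.0%, 33.3% and 42.9% against 77.3%, 84.7% and 90.3% (2.87 ± 0.94, edgeR adjusted p = 0.0294). KDM3B, an H3K9 demethylase, had 100%, 20.0% and 0% against 88.9%, 82.9% and 85.7% (4.19 ± 1.38, edgeR adjusted p = 0.0311). In these 3 genes Control 1 overlapped the Chtop libraries. SETD2, KDM5C and NSD3 completed the list, with adjusted p between 0.0428 and 0.0482. Single Control libraries decided the size of several ratios. Without Control 2 the log2 ratio was 2.09 for KMT2A, 2.16 for SETD5 and 2.10 for KMT2C, none of them called. Without Control 3 it was 5.79 for KMT2A and 3.34 for KDM3B, and without Control 1 it was 5.24 for KDM3B. The calls rested on few Control tags. The count of 13 fell to 0 without Control replicate 2, to 2 without Control replicate 3 and to 3 without Chtop replicate 3, and with the replicate number as a block it was 1 (KDM6A).

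Chtop against Alyref gave 0 calls of 36 on the exon to intron ratio, against 0.0524% of all genes higher and 0% lower. SETD2, KMT2A, NSD1, KDM3B and KMT2C had an unadjusted p under 0.05, as had 17.3% of all genes, with log2 ratios from 1.52 to 2.29. The ratio was above 0 in 35 of the 36 genes, beside 85.5% of all genes tested. SETD2, the main writer of H3K36 trimethylation, had 6, 55 and 34 exonic and 6, 51 and 50 intronic tags in Alyref 1 to 3, against 6, 93 and 74 exonic and 1, 28 and 13 intronic tags in Chtop (2.29 ± 0.74, edgeR adjusted p = 0.120). With edgeR's bias-adjusted quasi-likelihood, an alternative added after the data were seen, these same 5 genes passed, with 7.39% of all genes called. The median was 1.13, beside 0.97 over all genes.

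Within exons, the untranslated regions were compared with the coding sequence (CDS). The 3′ UTR took 22.4%, 20.9% and 23.1% of the exonic tags of the 42 genes in Alyref 1 to 3 and 40.2%, 34.1% and 38.6% in Chtop, with no overlap between the groups. Over all protein-coding genes the 3′ UTR took 28.2% ± 1.29 (SD, n = 3) in Alyref and 45.0% ± 1.95 in Chtop, so the 42 genes carried a smaller 3′ UTR share in both. The 5′ UTR took 6.76%, 5.19% and 4.35% in Alyref and 3.35%, 3.32% and 3.23% in Chtop. In the Control, 3′ UTR shares of 4.55%, 24.1% and 34.5% rested on 22, 58 and 29 exonic tags.

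Tested within genes, the 3′ UTR to CDS ratio was higher in Chtop than in Alyref in 6 of 33 genes and lower in 0. That is 18.2%, against 26% of all 5193 genes higher and 0.231% lower, and the median log2 ratio was 1.05 for the 33 genes, beside 1.2 for all. SETD5 had the smallest p. Its 3′ UTR held 38.1%, 26.5% and 30.6% of the 3′ UTR and CDS tags in Alyref 1 to 3 and 45.5%, 51.9% and 57.4% in Chtop (log2 ratio 1.53 ± 0.30, edgeR adjusted p = 2.49e-05). NSD3 had 60.0%, 52.5% and 50.6% in Alyref and 77.8%, 72.2% and 71.8% in Chtop (1.24 ± 0.34, edgeR adjusted p = 0.00301). All Chtop libraries lay above all Alyref libraries in both genes, and both calls held under all 18 alternatives.

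KMT2A had 17.4%, 26.5% and 29.5% in Alyref against 51.9%, 36.3% and 40.8% in Chtop (0.78 ± 0.25, edgeR adjusted p = 0.0129). NSD2 had 41.7%, 40.2% and 36.6% against 23.1%, 57.6% and 54.9% (0.93 ± 0.32, edgeR adjusted p = 0.0223), and its Chtop 1 lay below Alyref. EHMT1, an H3K9 methyltransferase, had 25.0%, 16.7% and 21.2% against 100%, 53.7% and 41.9% (2.02 ± 0.61, edgeR adjusted p = 0.00761). KDM6B, an H3K27 demethylase, had 6 3′ UTR and 51 CDS tags in Alyref and 24 and 35 in Chtop (2.49 ± 0.80, edgeR adjusted p = 0.0123). Its shares were 0%, 10.5% and 11.8% in Alyref and 100%, 20.0% and 69.6% in Chtop, where Chtop 1 had 1 such tag. Its log2 ratio was 4.17 without Chtop 2 and 1.22 without Chtop 3, the latter not called (edgeR adjusted p = 0.426). SETD2 had the only ratio below 0 among the 33 genes, -1.35 ± 0.73, and did not pass (edgeR adjusted p = 0.149). The count of 6 was 2 without Alyref replicate 2 and 3 without Chtop replicate 3.

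**Figure D4:**
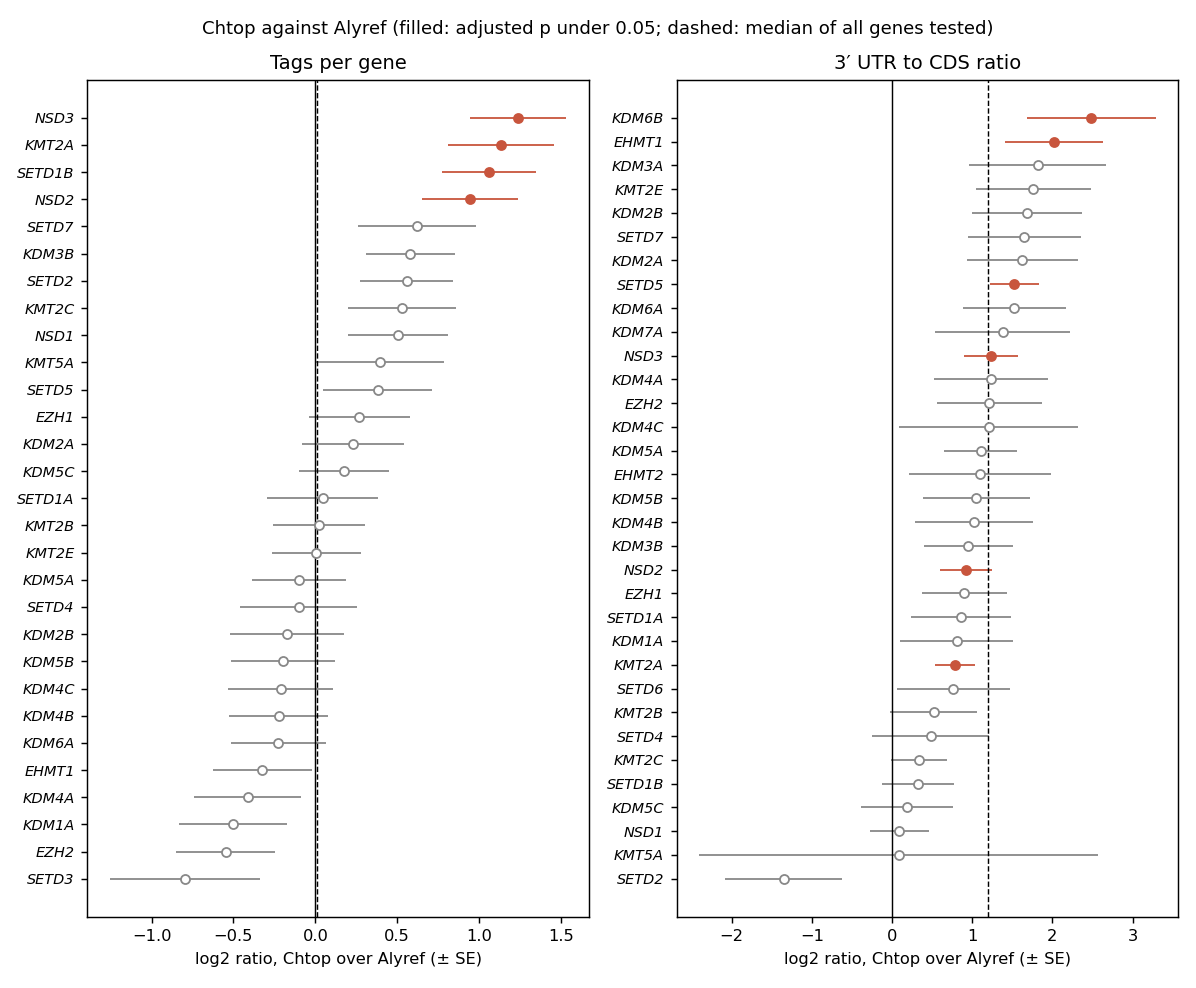
Log2 ratio of Chtop over Alyref with its SE for the tags of each gene (29 genes) and for the 3′ UTR to CDS ratio (33 genes), with filled points at an adjusted p under 0.05 and a dashed line at the median of all genes tested. The 4 called genes on the left run from 0.95 to 1.24, and the points on the right scatter around the median of all genes, 1.2, with SETD2 at -1.35.

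Single exons show where these tags fell. The exon with the most factor tags was the last of KMT2A (exon 36, 4936 bases), with 4, 77 and 58 tags in Alyref 1 to 3 and 15, 202 and 133 in Chtop. The last exon of NSD3 (exon 24, 6179 bases) held 10, 54 and 48 tags in Alyref and 7, 159 and 153 in Chtop, and that of SETD5 (exon 23, 2672 bases) held 9, 72 and 47 against 6, 136 and 129. The last exon of NSD2 (exon 22, 3555 bases) held 99 tags in Alyref, 229 in Chtop and 0 in the Control. All 4 exons hold the 3′ UTR.

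Long exons in the middle of genes had more Chtop tags too. The 42 genes have 15 middle exons of 1000 bases or more, in 9 genes, and these make up 20.4% of the length of their middle exons. They took 17.0%, 15.9% and 16.2% of middle-exon tags in Alyref 1 to 3 and 29.0%, 34.3% and 33.8% in Chtop. Nxf1 (42.3%, 22.0% and 29.4%) and Control (25.0%, 17.9% and 44.4%, on 5, 7 and 8 tags) overlapped Chtop. Over all protein-coding genes such exons make up 9.94% of the length and took 5.15% to 5.32% of the tags in Alyref and 13.6% to 17.1% in Chtop, so that the contrast was not confined to the 42 genes. The 171 middle exons under 100 bases, with 8.62% of the length, took 10.3% to 11.5% in Alyref and 5.07% to 9% in Chtop.

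**Figure D5:**
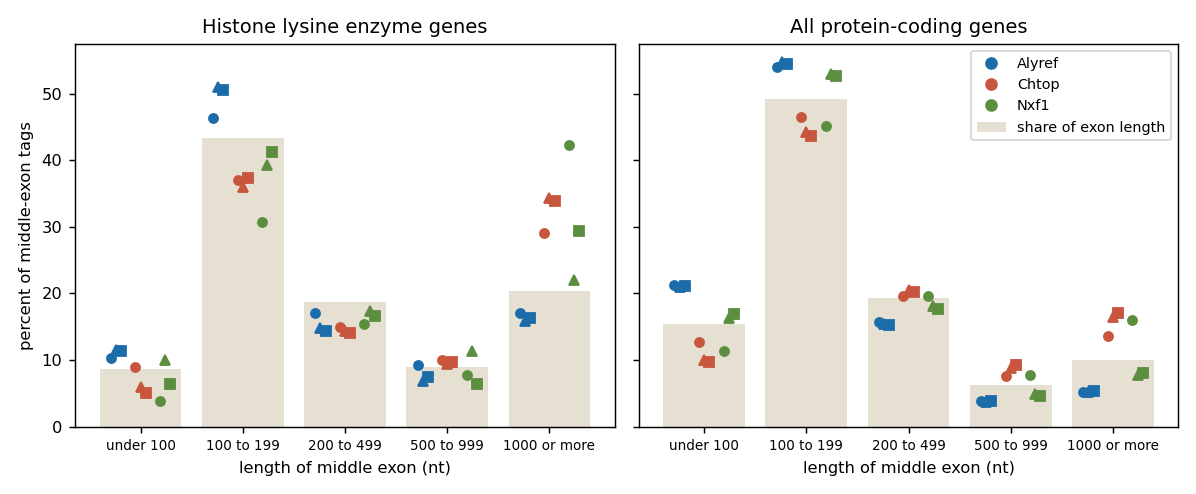
Share of middle-exon tags (vertical axis, percent) by length of the exon (horizontal axis, bases) for Alyref, Chtop and Nxf1, a symbol for each library, with bars for the share of middle-exon length in each class. In exons of 1000 bases or more Chtop lies above the bar and Alyref below it, for the 42 genes (29.0% to 34.3% against 15.9% to 17.0%) and for all protein-coding genes.

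By exon, the mean CPM was higher in Chtop than in Alyref in 14 of these 15, and every Chtop library lay above every Alyref library in 6. Exon 27 of KMT2A (4249 bases, chromosome 11, 118373113 to 118377361) held 10, 51 and 36 tags in Alyref and 3, 143 and 63 in Chtop. Exon 5 of NSD1 (2560 bases, chromosome 5, 176636637 to 176639196) held 3, 26 and 24 against 1, 70 and 64. Exon 3 of SETD2 (4367 bases, chromosome 3, 47161672 to 47166038) held 4, 22 and 19 against 2, 63 and 54. Exons 36 and 38 of KMT2C held 34 and 41 tags in Alyref and 97 and 98 in Chtop. The exception was exon 28 of KMT2B (1294 bases), with 33 tags in Alyref and 30 in Chtop. Exons were chosen by length, with no test. The same counts over the long middle exons of all protein-coding genes are not given. The counts of 14 and 6 therefore do not set these exons apart from others.

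The ends of exons were also counted. Counts were taken at 448 internal junctions of these genes, between exons of at least 100 bases. Of 2250 Alyref tag counts within 100 bases of a junction, 28.8% lay 75 to 24 bases before the exon end (95% Wilson interval 26.9% to 30.7%). A tag in a short exon between neighbouring junctions could count at both, so that these intervals may be too narrow. The share was 25.1% of 1667 such counts for Chtop (23.05% to 27.2%), 26.9% of 160 for Nxf1 (20.6% to 34.2%) and 28.6% of 49 for Control (17.9% to 42.4%). By library it was 24.1%, 29.8% and 27.9% in Alyref and 21.3%, 26.1% and 24.03% in Chtop, so that the 2 groups overlapped. The share due to the length of the window alone was not set beside these values. Whether any group held an excess or a lack in the window was therefore not tested.

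Introns were sparse, with 31 introns of these genes at 20 or more Alyref tags, 11 for Chtop and 3 for Nxf1. These are introns of the canonical transcript, counted with any bases in them that are exon in another isoform. In mean CPM per kb, the densest for Alyref were intron 9 of NSD3 (7.63), intron 3 of SETD5 (5.52) and intron 8 of EZH2 (3.77). For Chtop they were introns 8 and 9 of NSD3 (10.0 and 9.82) and intron 9 of NSD2 (3.98), and for Nxf1 intron 1 of SETD5 (3.45), intron 2 of NSD1 (1.53) and intron 2 of KDM6A (0.992). NSD3 intron 9 (2852 bases, chromosome 8, 38173561 to 38176412) was thus dense in both TREX factors, on 27 Alyref and 31 Chtop tags. Introns kept whole in an exon of another isoform, 85 of 810, held 2.37 tags per kb in Alyref against 0.878 in the other 725, 1.77 against 0.445 in Chtop, 0.325 against 0.244 in Nxf1 and 0.297 against 0.0719 in Control.

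Partners of these enzymes were counted from 5 lists of 60 genes in all, COMPASS and MLL subunits, PRC2 subunits, other lysine methyltransferases, other JmjC proteins and partners of KDM1A. Of 25 tested on tags per gene, 0 passed for Alyref or Nxf1 against Control, and 4 were higher in Chtop than in Control and 0 lower, where 10.2% of all genes were higher and 5.68% lower. The 4 were HCFC1, a subunit of MLL and SET1 complexes, ZMYM3, a KDM1A partner, RBBP7, a histone-binding subunit of PRC2, and ASH1L, an H3K36 methyltransferase. Chtop against Alyref gave 5 higher and 1 lower (RBBP4), beside 11.6% and 6.56% of all genes. Nxf1 against Chtop gave 2 higher and 6 lower, beside 10.8% and 16.5% of all genes, while Nxf1 against Alyref gave 0. On the exon to intron ratio, 8 of 44 were higher in Chtop than in Control, beside 11.8% of all genes, and 0 in the other 3 comparisons. On the 3′ UTR to CDS ratio, 18 of 43 were higher in Chtop than in Alyref and 0 lower, beside 26% and 0.231% of all genes. Among the other lysine methyltransferases, DOT1L, which methylates lysine 79 of histone H3, was the 1 gene of 9 to pass on that ratio, and the list's median was 0.02.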

How the data were processed

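The deposited values are counts, made by the authors from iCLIP reads: phiX reads were removed with Bowtie 1.1.2, random barcodes handled with UMI-tools 0.5.3 and reads aligned to hg19 with STAR 2.4.2a, keeping unique alignments. Lanes of a library were merged and duplicates collapsed by barcode, so that each deposited file gives, per crosslinked base and strand, the number of deduplicated reads (tags). Pooled files were not used, and 0 columns of per-sample values were left unused.

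Tags were assigned to GENCODE genes lifted to GRCh37, the build of the files (of 25 chromosomes, 1, the mitochondrial, had a tag past its end and was left out). The annotation held 63839 genes after 647 readthrough genes were dropped. Tags in more than 1 gene of a strand were left out, 3.47% to 5.12% of a library. Exons and UTRs are those of the canonical transcript, and a gene lacking one was given its longest coding transcript.

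Tags per gene were tested with edgeR 4.0.16 in R 4.3.3 (quasi-likelihood F-test, TMM, filterByExpr, all 12 libraries in 1 fit, Benjamini-Hochberg over all genes tested, threshold 0.05). TMM factors were 1.49 in Nxf1 1 and 1.60 in Control 1 and 0.830 to 0.983 in the others. Region ratios were tested in 1 fit with an effect for each library and a region effect per group. Both were tested on simulated data first. The SE is the size of the log2 ratio divided by the square root of F. DESeq2 1.42.0 was an alternative. Intervals are Wilson intervals at 95%, and a count of 0 was taken to allow 3 tags.

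Genes given in full were the 6 with the highest mean CPM, up to 8 called genes per comparison with the smallest p, genes with no tag, the 3 densest introns per factor (20 tags or more), the 3 lowest and 3 highest exon shares (200 tags or more) and the base with the most tags per group. The recurrent bases, windows and long exons were chosen after their values were seen. Members and lists were chosen with earlier results of these data known. A gene the name rule leaves out is not reported here.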

Additional observations from a re-analysis of the deposited data

How the results depend on the processing

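With the replicate number as a block, the calls among the 42 genes were 3 for tags in Chtop against Control, 4 for Chtop against Alyref, 5 for Nxf1 against Chtop, 6 for the 3′ UTR to CDS ratio and 1 (from 13) for the exon to intron ratio of Chtop against Control. The labels tie the numbers to sequencing runs (replicate 2 apart from 1 and 3, and replicate 3 without a miseq run) and to no shared culture. In tags per gene, same-numbered libraries deviated together weakly (r from -0.17 to 0.22, over 0.1 in 5 of 18 pairs, against 4 of 36 pairs with different numbers), so the block was not the main design. These correlations do not cover placement. The exon share of the 42 genes fell from replicate 1 to 3 in Alyref, Nxf1 and Control, and not in Chtop. The correlations therefore do not settle the choice for the exon to intron ratio. Other counts moved as follows. For Chtop against Control on tags, 3 became 1 with exonic bases only. For Chtop against Alyref on tags, 4 became 2 with scaling by total tags, 2 with DESeq2's Wald test and 7 with exonic bases only. For Nxf1 against Alyref, 0 became 1 with exonic bases only. For Nxf1 against Chtop, 6 became 3 with DESeq2's Wald test, 3 with only the 6 libraries compared, 1 with exonic bases only and 10 without replicate 1 of all groups, an alternative added after the data were seen, as was the bias-adjusted quasi-likelihood. For the exon to intron ratio of Chtop against Control, 13 became 7 with no low count filter (12753 genes tested) and 6 with the bias-adjusted quasi-likelihood, which turned 0 into 5 for Chtop against Alyref. For the 3′ UTR to CDS ratio, 6 became 10 with last exons against other exons, 10 with the bias-adjusted quasi-likelihood and 10 without replicate 1 of all groups. The bias-adjusted count was 10 of 33 genes, beside 27.9% of all genes tested. Where no share over all genes is given, a count shows how the calls moved. It does not set the 42 genes apart from others. KMT2B in Nxf1 against Chtop turned to 0.40 with exonic bases only. The cause was not tested. Leaving out 1 library at a time, or replicate 1 of all groups, the counts ran from 2 to 3 for Chtop against Control, 0 to 5 for Chtop against Alyref and 0 to 10 for Nxf1 against Chtop on tags (at most 8 with 1 library left out), 0 to 16 for the exon to intron ratio of Chtop against Control, 2 to 10 for the 3′ UTR to CDS ratio (at most 9 with 1 left out), and stayed at 0 to 0 for the other 6 comparisons. All-gene counts moved too: for the exon to intron ratio of Chtop against Alyref, 4 genes became 564 with the bias-adjusted quasi-likelihood, and for Chtop against Control 900 became 538 with it and 266 with the block. On tags, DESeq2's Wald test turned 581 genes into 79 for Chtop against Alyref, 874 into 258 for Nxf1 against Chtop and 508 into 225 for Chtop against Control.

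Scaling set the split of calls over all genes. Of the calls for Chtop against Control, 64.2% were higher with TMM and 44.9% with DESeq2 size factors. For Chtop against Alyref 63.9% became 45.5% with total tags, for Nxf1 against Chtop 39.7% became 53.1% and 23.9%, and for Nxf1 against Alyref 34.7% became 53.3% and 12.1%, with DESeq2 size factors and total tags. The median of all genes shifted by -0.30 to 0.18 over all comparisons on tags. The called genes kept their direction under both scalings. With 36 to 212 Control tags on the 42 genes per library, a single gene's Control level rests on few tags.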
